A study of Mus musculus with 2 samples.

Results

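The brown adipose culture held a small population of muscle lineage cells. They were defined as cells of the brown library with at least 1000 detected genes and at least 2 UMIs (unique molecular identifiers, each standing for 1 captured transcript) of Myod1, and 65 of 6893 brown cells met this rule. That is 0.943% of the cells, with an exact Clopper-Pearson interval at 95% of 0.729 to 1.20%. The intervals given here and below cover counting error only. The remaining 6828 cells with at least 1000 genes are called the other brown cells.

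The study compared progenitors of white and brown fat by 10x Genomics 3′ single-cell RNA sequencing. Both depots were from neonatal C57/BL6J mice, labelled P0 but given as P1 in the study's methods, with male and female pups pooled, and neither culture carried a transgene or received a drug. Subcutaneous white (WAT) and interscapular brown (BAT) fat was digested with collagenase, and the stromal vascular fraction was grown on plastic in serum to confluency before it was trypsinised. Each depot gave 1 library, so no difference could be tested, and every value below describes these cells. The brown library held 7009 captured cells with 205551320 UMIs in all, and the white library 5261 captured cells with 144451047 UMIs. The libraries shared 9 cell barcodes, none of them a myogenic cell.

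Skeletal muscle forms from precursors marked by the paired-box factor Pax7 and by Myf5, which divide and then commit under Myod1. Commitment to differentiation turns on Myog, withdraws the cell from division, and is followed by fusion into multinucleated fibres and by assembly of the sarcomere, the contractile unit. Interscapular brown fat and the muscles next to it share an origin in Myf5-expressing somitic cells, and both depots lie close to muscle when they are dissected.

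The label was borne out by markers that the rule did not use, although they were read in the same cells. Myod1 itself (chromosome 7, 46376474 to 46379099 in GRCm38), the factor that commits cells to muscle, is the gene of the rule. It was found at 2 to 56 UMIs per cell with a median of 16, where the lowest value is the threshold. Among the markers that the rule did not use, Myog (chromosome 1, 134289989 to 134292548) drives terminal differentiation. It had a lowest value of 1, a median of 68 and a highest value of 235 UMIs, and was present in all 65 cells. Des, which encodes the muscle intermediate filament desmin, was also present in all 65, at 2 to 169 UMIs with a median of 45. Cdh15, the muscle cadherin, was seen in 61 cells (93.8%, 85.0 to 98.3%) at up to 15 UMIs. The early factors were rare: Pax7 had 17 UMIs spread over 7 cells and Myf5 9 UMIs over 5 cells. Of the 5 markers besides Myod1, 52 cells held 3, 9 held 4, 1 held all 5 and 3 held 2. Sox10 of glia and Ptprc of blood cells had no UMI in any of the 65 cells, which allows a share of up to 4.62% of cells with a UMI of either gene.

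**Figure D1:**
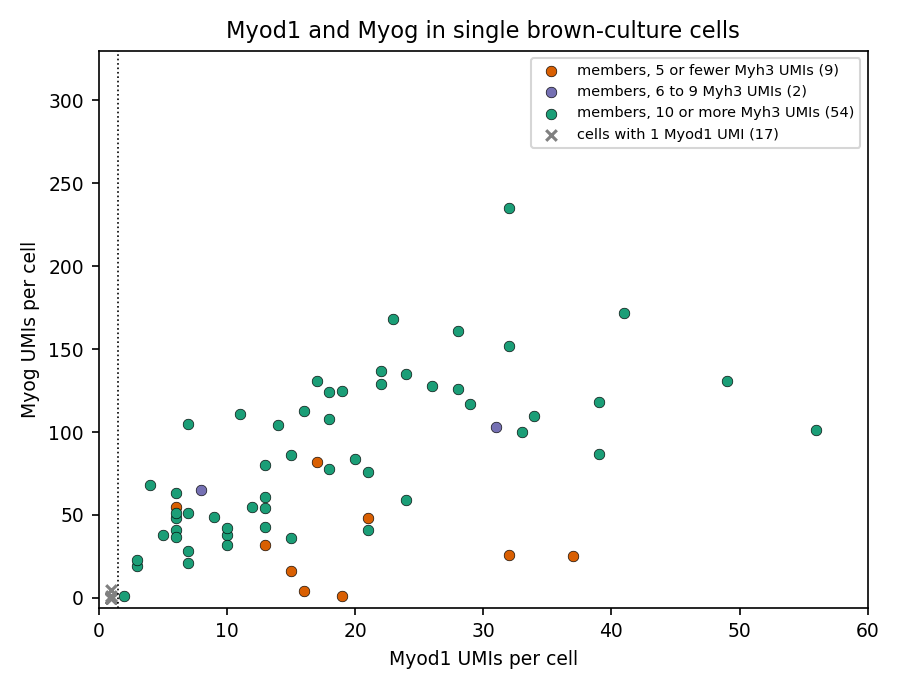
UMIs of Myod1 (horizontal axis) and of Myog (vertical axis) in each of the 65 myogenic cells, coloured by their Myh3 UMIs, and in the 17 brown cells with exactly 1 Myod1 UMI (crosses); the dotted line marks the threshold of the rule. The cells with 1 Myod1 UMI lie at or near 0 Myog UMIs, while 62 of the 65 myogenic cells have 10 or more.

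Few cells lay near the threshold, and the cells on its outer side carried little else of muscle. Just outside it, 17 cells had exactly 1 Myod1 UMI: 14 of them held no other myogenic marker and 3 held 1 marker, and precursor and fibroblast genes took a median of 1.38% of their UMIs. Just inside it, 1 cell had 2 Myod1 UMIs and 2 cells had 3. The cell with 2 was the least muscle-like in its markers, with 1 Myog, 6 Des, no Cdh15 and 198 Col1a1 UMIs, but it had 21 UMIs of the embryonic myosin Myh3. In 3 further cells with no Myod1 UMI at all, 3 of the other markers were present, with 30, 5 and 52 Myog UMIs and 144, 105 and 195 UMIs of the myosin light chain gene Mylpf. The rule leaves these 3 cells among the other brown cells.

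No cell of the white culture met the same rule. Among 5103 white cells with at least 1000 genes, Myod1, Myog, Pax7, Myf5 and the fusion gene Mymk had no UMI. The Clopper-Pearson interval allows a share of up to 0.0723% of cells with a UMI of any one of them. Des (431 UMIs) and Cdh15 (36 UMIs) were present there, so neither gene alone marked the population. In the brown library, UMIs of Myog were also found in 159 of the 6828 other cells (2.33%). They were in 1 of 90 glial cells (1.11%, 0.0281 to 6.04%) and 2 of 79 myeloid cells (2.53%, 0.308 to 8.85%), which should lack the gene. Glial cells are other brown cells with 2 or more Sox10 UMIs (median depth 19635 UMIs), and myeloid cells have 2 or more of Ptprc (27354 UMIs). The Myog share of the other brown cells lay inside both intervals, which rest on 1 and 2 cells and set no background level. Among the other brown cells, 15 had 2 or more Myog UMIs. In 19 there were 2 or more UMIs of Ttn, the gene of the sarcomere protein titin. The other brown cells may thus hold more muscle lineage cells than the 3 given above.

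Myogenic cells had a similar depth to their neighbours but fewer detected genes. Their UMIs ran from 10605 to 74327 with a median of 26108, against a median of 26604 in the other brown cells, and they had a median of 4937 detected genes against 5741. When each cell was thinned to 10000 UMIs, which left out 116 of the other cells and no myogenic cell, the medians were 3038 and 3470 genes. The mitochondrial share was higher, with a median of 4.54% (2.47 to 8.30%) against 2.97%. This mattered for the study's own limits on cells, which asked for more than 3900 and fewer than 7700 genes, 1.7 to 5% mitochondrial UMIs and 6000 to 60000 UMIs. Those limits kept 34 of the 65 myogenic cells (52.3%) but 89.4% of the other brown cells. The mitochondrial limit of 5% alone removed 26 myogenic cells (40%), against 1.05% of the others.

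The sarcomere genes took a large part of the RNA of these cells. They made up 6.41% of all UMIs in the myogenic cells, with single cells from 0.207 to 14.6% (median 6.96%), against 0.252% in the other brown cells. Of 38 sarcomere genes with at least 10 CPM (UMIs of the gene per 1000000 UMIs of the group) in either summed profile, 36 were at least 2-fold higher in myogenic cells and 1 was lower, with a median log2 ratio of 9.81. Over all 9487 genes at that level, 9.6% were at least 2-fold higher and 22.7% at least 2-fold lower, and the median log2 ratio was -0.28. Because the same cells were chosen by Myod1, nothing is read from the difference between the list and this background. It serves only to scale the counts that follow.

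**Figure D2:**
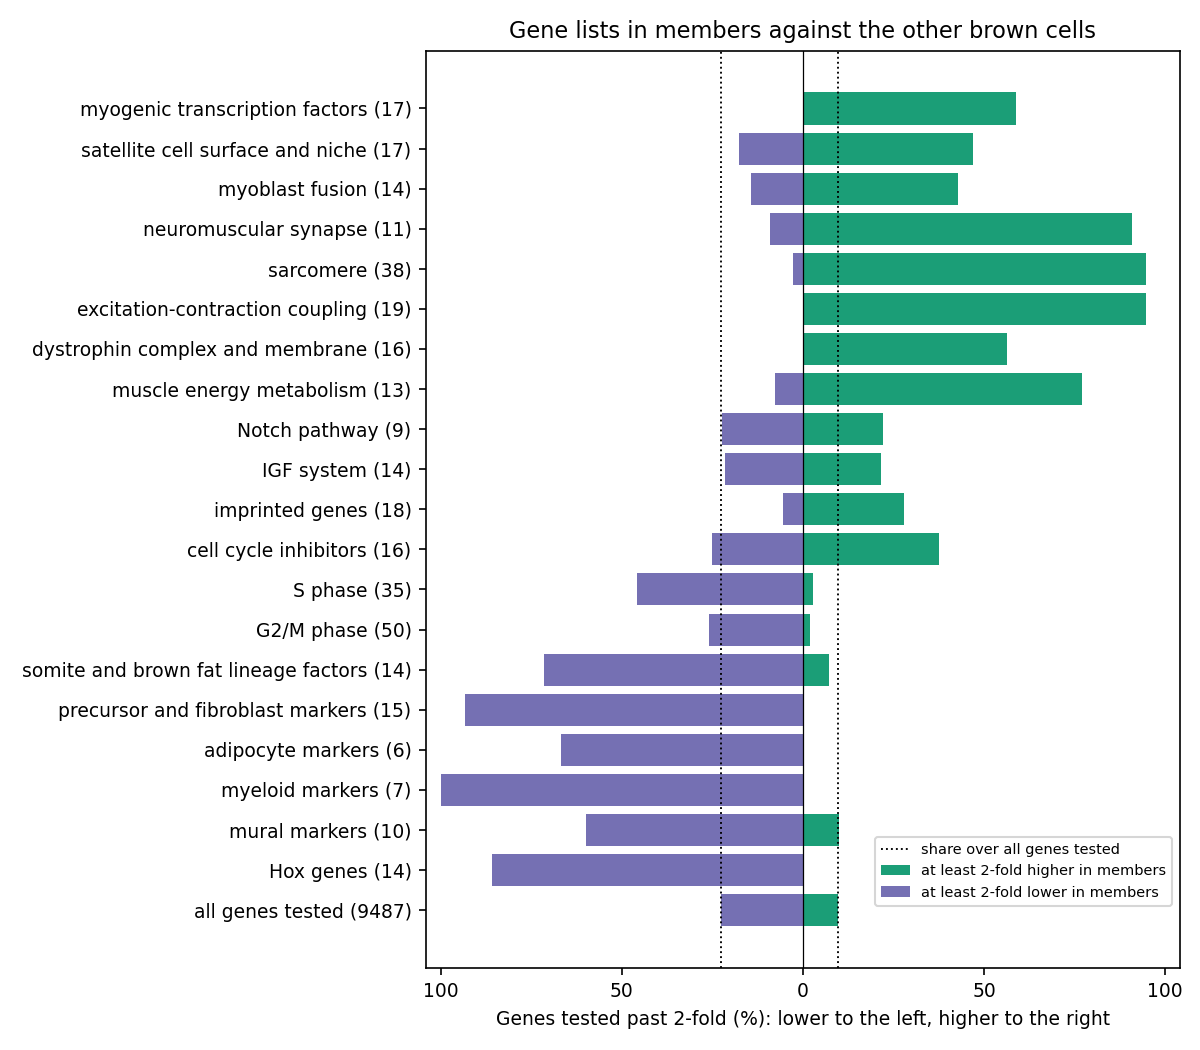
Share of the tested genes of each list that were at least 2-fold higher (right) or lower (left) in the summed profile of 65 myogenic cells than in 6828 other brown cells, with the number of tested genes in brackets; dotted lines mark the shares over all 9487 tested genes, 9.6% higher and 22.7% lower. Sarcomere, excitation-contraction and synapse lists lie almost wholly to the right, and precursor, myeloid and Hox lists to the left.

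The contractile genes included forms known from developing muscle. Mylpf, a fast myosin light chain, had 0 to 1138 UMIs per cell with a median of 298, and the embryonic light chain Myl4 0 to 635 with a median of 151. Embryonic heavy chain Myh3 had 0 to 208 UMIs (median 44) and was found in 60 cells. The perinatal heavy chain Myh8 reached 70 UMIs but was absent from 25 cells. Of the adult fast chains, Myh2 had no UMI and Myh4 had 1 UMI over all 65 cells, while Myh1 had 198 UMIs (102 CPM). Cardiac-type Actc1 (5685 CPM) and skeletal Acta1 (6934 CPM) were both present, as they are in embryonic muscle. Ttn, the giant spring protein titin, was present in every cell, at 1 to 325 UMIs. The exceptions were the tropomyosins, which non-muscle cells also use: Tpm1 was 0.98 log2 units higher (2502 against 1269 CPM) and Tpm3 1.04 log2 units lower.

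Myod1 was not the only lineage factor present. Of 17 tested transcription factors of the muscle lineage, 10 were at least 2-fold higher and none lower. As far as this count takes in Myod1, it is fixed by the rule. Mef2c, the partner of the MyoD family on muscle genes, had 683 CPM (647 to 721, exact Poisson interval) against 53.9 in the other cells. Lbx1, a factor of migrating limb and trunk muscle precursors, had 68 UMIs over 38 myogenic cells and 0.00983 CPM elsewhere. Pitx3 (20.6 against 0.0295 CPM), a homeobox factor of fetal muscle, was also higher. Myf6, the factor of mature fibres, was seen in only 2 cells. Of the inhibitors of the MyoD family, Id1 differed by 0.52, Id2 by -0.04 and Id3 by -0.94 log2 units. For Id3 this rested on cells rich in Col1a1, described below: 14 such cells held 307 of its 556 UMIs, and in the other 51 it was more than 2-fold lower, at 193 against 549 CPM. Pax3 had no UMI.

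Second among genes at 50 CPM or more in myogenic cells ordered by ratio, after Myod1 itself, was Gm28653, a long noncoding RNA on chromosome 1 (20669882 to 20684298, plus strand, GRCm38). It had 1004 UMIs over 60 of the 65 myogenic cells and 22 UMIs over all other brown cells. The annotation places the microRNA genes Mir206 (20679010 to 20679082) and Mir133b (20682769 to 20682887) within it on the same strand. Both are muscle microRNAs, and their mature 3′ arms are shown because this transcript is the only trace of that locus in the data. Capitals mark the seed, bases 2 to 8, which differs between the pair. The sequences are from RefSeq on GRCm38.p6.
mmu-miR-206-3p: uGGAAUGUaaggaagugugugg
mmu-miR-133b-3p: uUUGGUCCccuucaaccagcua
The UMIs are those of the long transcript. Mature microRNAs are too short for this assay and were not measured.

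Genes of the neuromuscular synapse, the contact between motor nerve and muscle fibre, were high as well. Of 11 tested genes, 10 were at least 2-fold higher. Chrna1, the alpha subunit of the muscle acetylcholine receptor, had 5 to 96 UMIs per cell with a median of 32 and was found in all 65 cells, and its level was 1134 CPM against 0.487 in the other brown cells. The fetal gamma subunit Chrng had 452 UMIs in 60 cells and the delta subunit Chrnd 157 UMIs in 60 cells. The adult subunit Chrne, which replaces gamma at mature synapses, had no UMI. The postsynaptic organisers Rapsn (221 CPM), Dok7 (53.1 CPM) and Musk (47.4 CPM) were each below 1 CPM elsewhere. Agrn, the signal that motor nerves release to them, was 1.33 log2 units lower, from 8 UMIs.

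Promoters of 2 acetylcholine receptor genes are shown because these genes were high together and, within the synapse list, were picked for holding the site that MyoD family proteins are known to bind. RefSeq windows run from 250 bases before to 50 after the annotated start (GRCm38.p6). Capitals mark CAGCTG, the E-box variant that is its own reverse complement, so 1 strand covers both. The third window, of Myog, has no CAGCTG, and its capitals mark the looser CANNTG, which every CAGCTG also matches.
Chrna1, chr2:73580289-73580588, minus strand: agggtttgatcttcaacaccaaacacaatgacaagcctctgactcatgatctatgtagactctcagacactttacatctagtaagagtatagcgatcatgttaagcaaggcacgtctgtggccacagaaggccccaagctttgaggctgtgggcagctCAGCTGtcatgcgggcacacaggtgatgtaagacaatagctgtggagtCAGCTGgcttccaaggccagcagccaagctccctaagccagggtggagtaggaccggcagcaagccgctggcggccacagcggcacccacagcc
Chrng, chr1:87205561-87205860, plus strand: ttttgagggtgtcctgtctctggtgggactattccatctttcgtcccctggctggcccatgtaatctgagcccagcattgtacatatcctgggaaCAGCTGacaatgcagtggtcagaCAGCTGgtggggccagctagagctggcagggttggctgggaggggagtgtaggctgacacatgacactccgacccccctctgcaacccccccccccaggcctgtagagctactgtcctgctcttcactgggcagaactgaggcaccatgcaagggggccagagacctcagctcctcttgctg
Myog, chr1:134289754-134290053, plus strand: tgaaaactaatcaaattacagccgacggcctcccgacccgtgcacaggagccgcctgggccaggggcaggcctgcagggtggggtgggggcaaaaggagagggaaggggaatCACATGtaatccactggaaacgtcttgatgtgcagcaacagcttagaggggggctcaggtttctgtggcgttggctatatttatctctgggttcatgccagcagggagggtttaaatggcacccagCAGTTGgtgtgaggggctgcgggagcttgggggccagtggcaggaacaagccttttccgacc

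Chrna1 and Chrng each held 2 CAGCTG matches, which is how they were picked. In the synapse list as a whole 4 of 10 windows held a match, against 16.3% of all 32851 promoter windows. Windows of the 20 genes with the highest ratio at 50 CPM or more held it in 8 of 19 cases (11 of the 20 genes had an entry), sarcomere genes in 17 of 42 and precursor genes in 1 of 9. The looser CANNTG is in 72.3% of all windows. It was in 18 of 19 windows of the 20 highest genes, 36 of 42 of sarcomere genes, 8 of 10 of synapse genes and 3 of 9 of precursor genes. These matches describe the letters of the windows, and binding was not measured.

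The machinery of fusion and of calcium release accompanied the receptor. Mymk, the membrane protein that opens the fusion of myoblasts, had 988 CPM (944 to 1033) and was present in 62 cells at up to 85 UMIs. Its partner Mymx had 810 CPM against 0.270 elsewhere. In all, 6 of 14 tested fusion genes were at least 2-fold higher and 2 lower, the latter being Dock1 and Neo1, which many cell types express. Of 19 tested genes of excitation-contraction coupling, 18 were higher and none lower. They included the calcium channel Cacna1s (68.6 CPM), the release channel Ryr1 (134 CPM), the calcium pump Atp2a1 (229 CPM) and the calcium store protein Casq2 (368 CPM), all below 1 CPM elsewhere. Sln, which encodes the pump regulator sarcolipin, was found in 28 of the 65 cells and reached 50 UMIs in one of them.

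Membrane and energy genes followed with fewer members. In the dystrophin complex list, 9 of 16 genes were at least 2-fold higher and none lower, among them Cav3 (434 CPM) and Sgca (50.5 CPM), which are restricted to muscle. Dmd, encoding dystrophin, had 356 CPM against 29.1. Of 13 tested energy genes, 10 were higher and 1 lower: the muscle forms Ckm, Pgam2 and Eno3 and the oxygen store Mb were higher, and the heart-type lactate dehydrogenase Ldhb was lower by 1.51 log2 units. Satellite cell surface genes were split. Of 17 tested, 8 were at least 2-fold higher, among them Cdh15, Fgfr4, Itga7 and Cd82, and 3 were lower, namely Vcam1 (47.4 against 111 CPM), Fgfr1 and Cav1, which other cell types also express. Among the genes too low to be tested, Calcr, a marker of quiescent satellite cells, and Chodl had no UMI, and the Notch target Heyl had 1. Among Notch genes, Hes6, which promotes differentiation, had 622 CPM against 17.2, and the ligand Dll1 was higher from 37 UMIs. Jag1 and Hes1 were the 2 of 9 tested that were lower.

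Inhibitors of cyclin-dependent kinases, which hold cells out of division, were found in every myogenic cell. Cdkn1c, encoding p57, was present in all 65 cells at 1 to 293 UMIs with a median of 46, and its level was 2197 CPM against 96.1 in the other brown cells, a log2 ratio of 4.52 (4.47 to 4.56, conditional binomial interval). Cdkn1a, encoding p21, was present in all 65 at 7 to 131 UMIs with a median of 48, at 1818 against 188 CPM. In the list of cell cycle inhibitors and partners, 6 of 16 genes were at least 2-fold higher and 4 lower. Cyclin D3 (Ccnd3, 491 against 74.9 CPM) and the retinoblastoma gene Rb1 (119.6 against 20.1 CPM) were higher, and cyclin D2 (Ccnd2) was 2.03 log2 units lower.

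Genes of the dividing phases depended on a few cells. Of 35 tested S phase genes, 16 were at least 2-fold lower and 1 (E2f8) higher. Of 50 tested G2/M genes, 13 were lower, a share close to that of all genes, and 1 (Tmpo) was higher. With the 7 myogenic cells that had 5 or more Mki67 UMIs counted among the other brown cells, the numbers of lower genes were 31 and 44. With the 14 cells rich in Col1a1 described below moved in the same way, they were 22 and 40. The first of these choices itself uses a cell cycle gene. Mki67, the proliferation marker, reached 5 UMIs in 7 of 65 myogenic cells (10.8%, 4.44 to 20.9%) against 21.2% of the other brown cells (20.2 to 22.2%). The 7 cells were deep, with 39265 to 74327 UMIs, and 5 of them were rich in Col1a1.

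Growth factor and imprinted genes diverged by gene rather than as groups. Igf2 (458 against 135 CPM), an autocrine growth factor of myoblasts, and its neighbour H19 (1540 against 524 CPM) were at least 2-fold higher, and so was Igfbp2. Igfbp5 was 2.05 log2 units higher (85.6 against 20.7 CPM). With the 7 Mki67-positive cells counted among the other brown cells instead, it was at 26.4 CPM and the log2 ratio was 0.31. Igfbp7, Igfbp4 and Igf1 were lower. Among 18 tested imprinted genes, 5 were higher and 1 (Sgce) lower, with Cdkn1c the furthest.

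Genes of the precursor, adipocyte and brown fat programmes were low. Precursor and fibroblast markers were at least 2-fold lower in 14 of 15 cases, none was higher, and the list took a median of 0.0560% of UMIs per cell against 1.60% in the other brown cells. The exception was Dlk1 (425 against 364 CPM), a marker of preadipocytes that embryonic muscle also makes. Of 14 tested factors of the somite and brown fat lineage, 10 were lower, among them En1, Ebf1 and Ebf2 (39.2 against 165 CPM), which mark brown precursors, and Lbx1 was the only one higher. Of the 76 Ebf2 UMIs, 74 lay in the 14 cells rich in Col1a1 described below, and the other 51 cells were at 1.55 CPM. Prdm16, a regulator of brown fat identity, was too low to be tested, with 2 UMIs in myogenic cells and 9.66 CPM in the others. Pparg, Cebpa, Fabp4 and Lpl were the 4 of 6 tested adipocyte genes that were lower, and Adipoq, Plin1 and Ucp1 had no UMI. Of 14 tested Hox genes, 12 were at least 2-fold lower and none higher, with Hoxc8 lowest among those tested at 8.25 against 40.5 CPM. Among the 10 genes with the lowest ratio at 50 CPM or more in the other cells were Pde7b, Lyz2, Fmn1, Prickle2, Cacna1c, Plxna4, Csgalnact1, Abi3bp and Kif26b, from -3.64 to -3.06 log2 units.

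Markers of other cell types differed by type. Of 12 glial genes, 7 had no UMI, and 147 of the 163 glial-list UMIs were of Erbb3, a neuregulin receptor that muscle fibres also carry (75.8 CPM, against 205 CPM in glial cells). Of 10 tested mural genes, Des was the 1 that was higher and 6 were lower, and Acta2, smooth muscle actin, was at 4242 CPM against 4542. The mural list as a whole took 0.650% of UMIs against 0.698%, with Acta2 the gene with most UMIs and Tagln, another contractile gene of smooth muscle, at 893 UMIs. The part of mural RNA in the results was not tested. All 7 tested myeloid genes were at least 2-fold lower, and no erythroid gene had a UMI.

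A subset of the myogenic cells carried precursor RNA. Col1a1 was detected in 57 of the 65 cells (87.7%), below its share in myeloid cells (94.9%) and glial cells (98.9%) of the same library. Over all 65 cells it was at 925 CPM, against 1139 CPM in myeloid cells, which do not make this collagen. In 51 cells it stayed under 20 UMIs and reached 101 CPM in sum, a level kept low by that division. In the other 14 it was at 2566 CPM, against 4544 CPM in the other brown cells. This division at 20 UMIs was chosen after the values had been seen. The 14 cells had a median of 43540 UMIs and 7042 genes, against 24019 UMIs and 4613 genes in the 51, and precursor genes took a median of 0.912% against 0.0453% of their UMIs. Sarcomere genes took 7.89% of the summed UMIs in the 51 cells and 3.47% in the 14. No doublet caller was run, and none of the cells was removed as a doublet. Whether 2 cells shared a droplet in these 14 cases was not tested. Both Xist and a Y-linked gene were found in 4 of the 65 cells, and among the rest 56 had only Xist and 5 only Y-linked UMIs, so 91.8% (81.9 to 97.3%) of these were Xist-only, against 86.4% of the other brown cells.

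**Figure D3:**
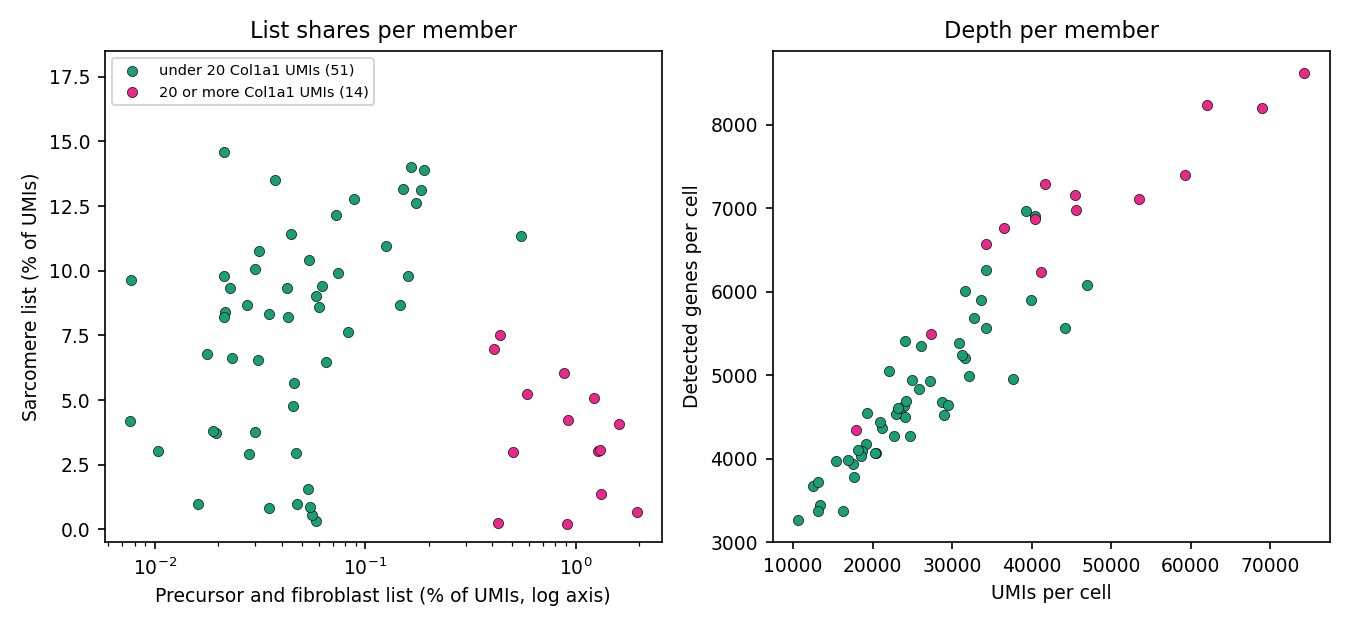
Left, share of UMIs from 15 precursor and fibroblast genes (logarithmic axis) and from 46 sarcomere genes in each of the 65 myogenic cells; right, UMIs and detected genes of the same cells. The 14 cells with 20 or more Col1a1 UMIs have precursor shares from 0.410 to 1.95%, none of them exceeds 7.50% of UMIs from sarcomere genes, and the deepest cells are among them.

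The myogenic cells varied widely in how much sarcomere RNA they held. No myogenic cell lacked Myog, so they were divided by Myh3, after its values had been seen. There were 9 cells with 5 or fewer Myh3 UMIs, 54 with 10 or more, and 2 in between. The Myh3-poor cells used more genes at a fixed depth of 10000 UMIs, a median of 3464 against 2984, and sarcomere genes took a median of 0.843% of their UMIs against 8.35%.

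**Figure D4:**
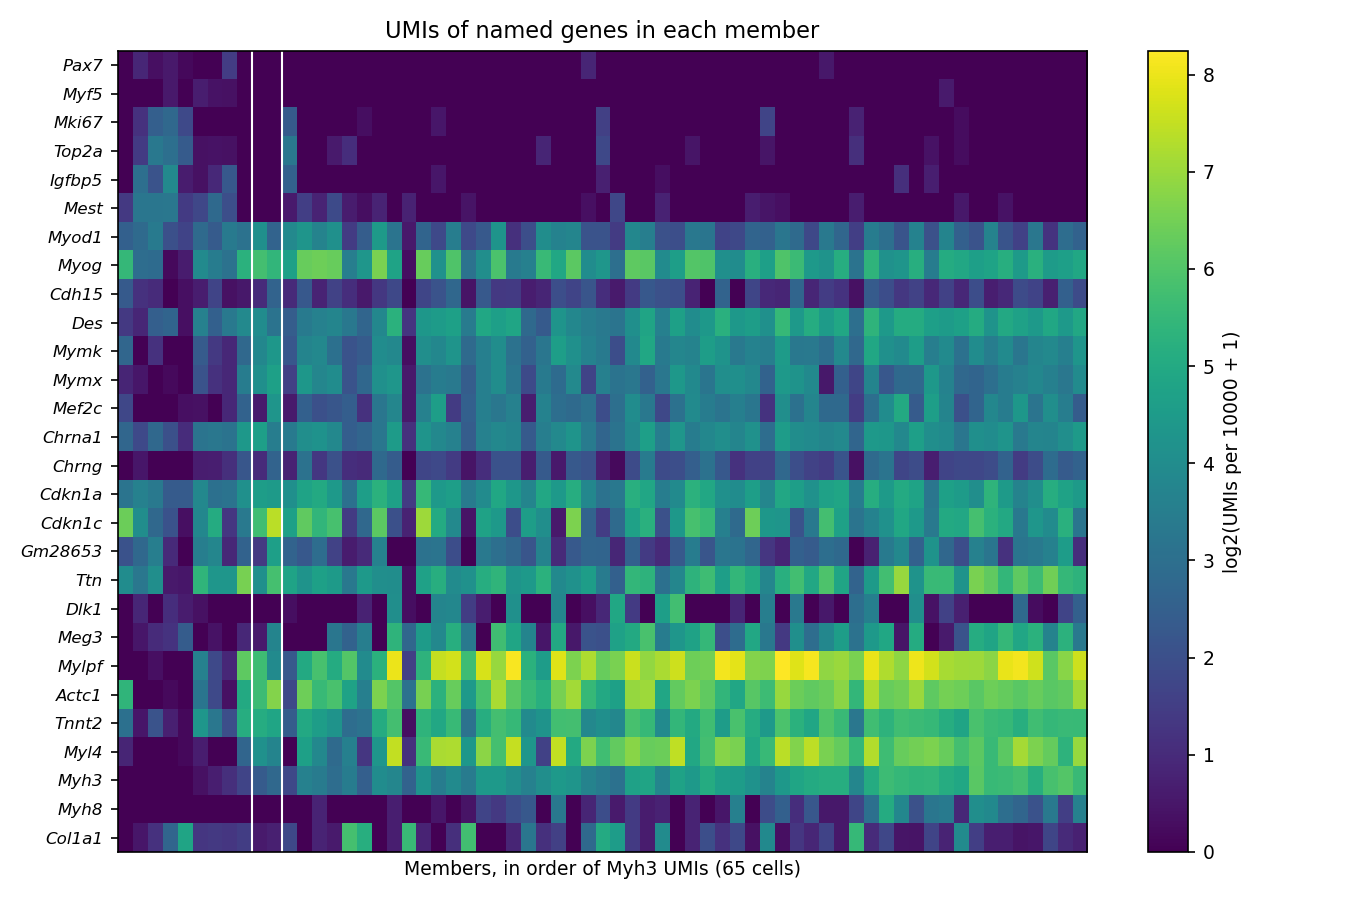
Level of 28 genes in each of the 65 myogenic cells, as log2(UMIs per 10000 + 1), ordered from left to right by Myh3 UMIs; white lines separate the 9 Myh3-poor cells, the 2 in between and the 54 Myh3-rich cells. Pax7, Myf5, Igfbp5 and Mest are seen mainly at the left, Myod1 and Chrna1 run across, and Mylpf, Myl4 and Actc1 are highest to the right.

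The early markers lay mostly among the Myh3-poor cells. Pax7 was present in 5 of these 9 cells and in 2 of the 54 Myh3-rich cells, and Myf5 in 4 of 9 and 1 of 54. The Myh3-poor cells were deeper (median 33660 against 26000 UMIs), and after thinning to 10000 UMIs Pax7 was left in 4 and Myf5 in 1 of the 65 cells. Mki67 reached 5 UMIs in 3 of 9 and in 4 of 54. The 9 cells were not alike. In 3 of them, with 18, 37 and 19 Mki67 UMIs, Myog was at 25, 1 and 4 UMIs and Mylpf at 1, 0 and 0. The last 2 of these were also rich in Col1a1, at 34 and 202 UMIs, and deep, at 62020 and 74327 of the 333752 UMIs of the 9 cells. In another 4, with 48, 32, 26 and 82 Myog UMIs, Mki67 was at 0 and Ttn at 137, 61, 66 and 207 UMIs.

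Myod1, by which all of these cells were chosen, had 625 CPM in Myh3-rich and 527 CPM in Myh3-poor cells, a log2 ratio of 0.25 (0.01 to 0.48). Since cells with fewer than 2 Myod1 UMIs were left out, nothing is read from this similarity. Myog was at 2947 and 866 CPM, and ranged from 1 to 235 UMIs in the rich and from 1 to 82 in the poor cells, so the groups overlapped. Mymk was at 1155 and 141 CPM, and was present in 54 of 54 and 6 of 9 cells. Chrna1 was nearer, at 1240 and 563 CPM, and Chrnd was present in every Myh3-poor cell. Gm28653, the microRNA host transcript, was at 516 and 461 CPM.

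Most tested contractile and energy genes were at least 2-fold higher in Myh3-rich cells, which were set apart by a contractile gene. Of 37 tested sarcomere genes (at least 50 CPM in either group), 34 were higher and 1 lower with a median log2 ratio of 3.41, where Myh3 itself is 1 of the 34. Over all 4070 genes at that level 8.82% were higher and 21.5% lower, with a median log2 ratio of -0.34. Myl4 went from 47.9 to 7458 CPM. Ttn (0.87 log2 units) and Tpm1 (0.35) did not pass 2-fold. Of the energy genes 9 of 10 were higher, of excitation-contraction genes 13 of 18, and of dystrophin complex genes 9 of 14, where Dmd had 1 UMI in the 9 Myh3-poor cells and 689 in the rich cells (log2 ratio 7.19, 4.71 to 12.50). A gene could pass the 50 CPM filter through the Myh3-rich cells alone, and Myh3 is itself a sarcomere gene. Nothing is therefore read from these counts. Mef2c was at 811 CPM in the rich and 59.9 CPM in the poor cells. Besides these, Actn2, Mybph, Mb, Cox6a2, Myl6b, Tnnc1 and Hspb3, a small heat shock protein of muscle, completed the 10 highest ratios at 50 CPM or more.

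**Figure D5:**
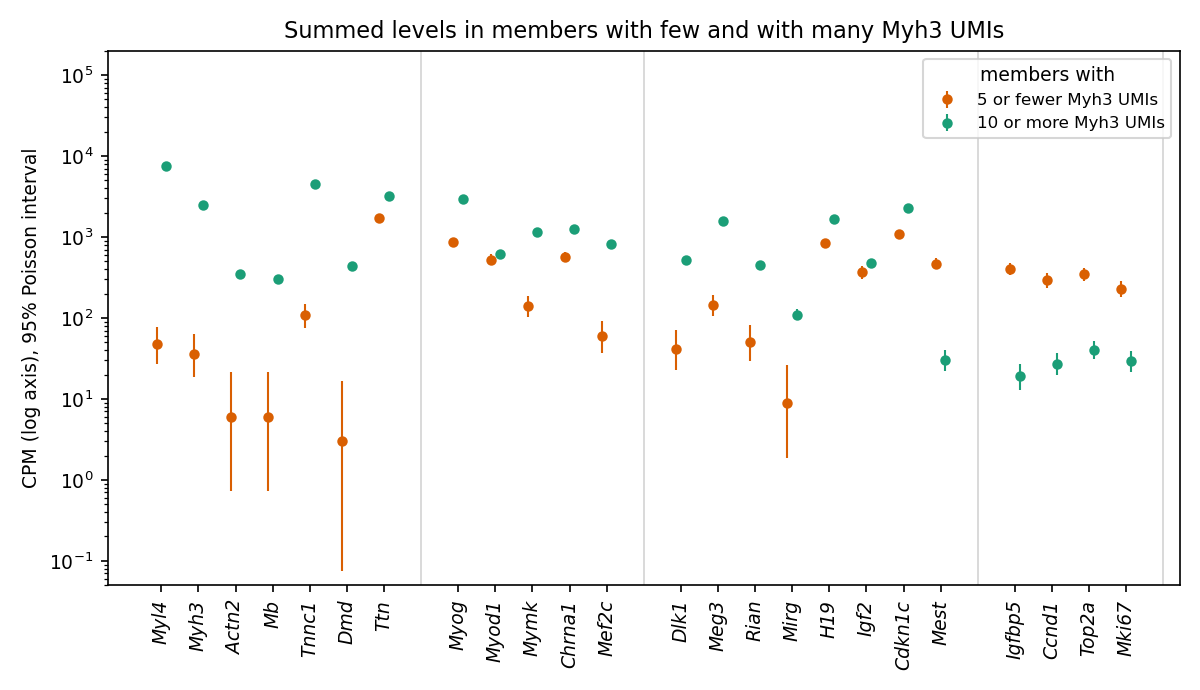
Summed levels of 24 genes in the 54 Myh3-rich cells (10 or more UMIs) and the 9 Myh3-poor cells (5 or fewer), in CPM on a logarithmic axis, with exact Poisson intervals at 95% that cover counting error only. Muscle genes and the imprinted genes Dlk1, Meg3, Rian and Mirg are higher in the rich cells, Myod1 lies at 625 and 527 CPM, and Mest, Igfbp5, Ccnd1, Top2a and Mki67 are higher in the poor cells. Most Top2a and Mki67 UMIs of the poor cells lie in 3 of them.

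Summed levels of division genes were higher in the Myh3-poor cells, but much of this lay in 3 cells. These held 18, 37 and 19 of the group's 77 Mki67 UMIs, and 35, 44 and 31 of its 117 Top2a UMIs. The medians over the 9 cells were 0 Mki67 UMIs and 1 Top2a UMI. In sum, the S phase list took 0.0524% of UMIs in the rich and 0.199% in the poor cells, and the G2/M list 0.152% and 0.666%. All 12 tested S phase genes and 37 of 39 G2/M genes were at least 2-fold lower in Myh3-rich cells. A gene could pass the 50 CPM filter through the Myh3-poor cells alone, so nothing is read from these counts. At a minimum of 10 CPM they were 30 of 36 and 50 of 52. The same filter and limit held without the Mki67-positive cells, where fewer genes reached 50 CPM, and 7 of 9 and 15 of 17 were lower. Precursor RNA also moved with this choice. The precursor list took 0.391% of UMIs in the rich and 0.309% in the poor cells with 1 of 11 tested genes higher and 1 lower, but without the Mki67-positive cells all 8 tested precursor genes and all 4 tested mural genes were higher in the Myh3-rich cells. Ccnd1, encoding cyclin D1, was at 27.4 CPM in the rich and 291 in the poor cells, and Met, the receptor of hepatocyte growth factor on muscle precursors, at 8.27 and 102 CPM. Igfbp5 was at 19.1 and 407 CPM, with 85 of its 136 UMIs in the poor group from a single cell. In the IGF list 4 of 10 tested genes were lower and none higher in the Myh3-rich cells (5 and 2 of 11 without the Mki67-positive cells), and Igf2 was at 474 CPM in the rich and 366 in the poor cells. Satellite cell genes were lower in 7 of 15 cases. Cdh15 was the 1 that was higher, a call lost against cells with 9 or fewer Myh3 UMIs, from mean single-cell CPM, after thinning, and without the Col1a1-rich or the Mki67-positive cells. Among the 10 lowest ratios at that level were also Pcdh15, Cxcl13, Ccnf, Gal, Cep55, Arhgap22, Plk1, Dynap and Lef1, of which Ccnf, Cep55 and Plk1 act in mitosis.

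Of 13 tested imprinted genes, 6 were at least 2-fold higher and 2 lower in the Myh3-rich cells, and at a minimum of 10 CPM 6 of 19 were higher and 6 lower. The 6 at 50 CPM included 4 neighbours on chromosome 12, singled out after their values were seen. Dlk1 (109452823 to 109463336), Meg3, Rian and Mirg (ending at 109749460) lie in 1 cluster, and had log2 ratios of 3.62, 3.47, 3.17 and 3.61. That of Mirg rests on 3 UMIs in the Myh3-poor cells, and its interval is 2.04 to 5.91. Dlk1 was at 516 CPM in the rich and 41.9 CPM in the poor cells, but with a median of 1 UMI and a highest value of 172 it was unevenly spread, and it was absent from 31 of the 65 myogenic cells. Meg3, which is noncoding, was more even, with a median of 40.5 UMIs in the rich and 1 in the poor cells. Dlk1 stood at 327 CPM in the 51 cells poor in Col1a1, against 68.4 CPM in myeloid cells. Within those 51 cells Meg3 was at 1915 CPM in the Myh3-rich and 40.5 CPM in the Myh3-poor cells, a log2 ratio of 5.56. Mest, an imprinted gene elsewhere in the genome, went the other way, at 29.9 and 470 CPM.

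Across the 65 cells, on log-scaled counts per 10000 UMIs, the correlation of Myod1 with Myog had a Pearson's r of 0.67 and a Spearman's rho of 0.70, and that with Myh3 0.02 and 0.02. Myh3 varied with Mylpf (0.86 and 0.70), Des (0.79 and 0.77) and Mymk (0.76 and 0.60), and weakly with Myog (0.45 and 0.26). These are descriptions without a test, over cells that share 1 library and the same scaling by depth. Those with Myod1 are also bounded by the rule, which left out cells with fewer than 2 Myod1 UMIs, among them the 3 with other markers.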

How the data were processed

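Per the labels, 1 library was made from the cultured stromal vascular cells of each depot with 10x Genomics 3′ chemistry v3.1. The authors deposited a filtered matrix of UMI counts for each, made with Cell Ranger 7.0.1 on mm10, with 32285 genes. No normalisation had been applied, and 0 columns were left unused. UMIs come from 3′ ends, and their order between genes is an order of captured tags.

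Cells with at least 1000 genes were kept, with no limit on the mitochondrial share and no upper limit, and no doublets were removed. UMIs were summed over the cells of each group and scaled to CPM, with exact Poisson intervals at 95% for sums, Clopper-Pearson intervals for shares and conditional binomial intervals for ratios. A sum of 0 was read against a floor of 3 UMIs. With 1 library per depot no test was made. A gene entered the counts of a list at 10 CPM or more in either group (50 CPM between Myh3 groups), and counted as higher or lower past 2-fold. Calculations used Python 3.11.15, numpy 2.4.6, scipy 1.17.1 and pandas 2.3.3. The calculation was tested on simulated counts with known fold changes.

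The myogenic cells and the 25 gene lists were chosen with earlier results of these data known. Genes named were the 6 markers, list members with the highest or lowest level or ratio, the 20 highest and 10 lowest ratios against the other brown cells, and the 10 highest and 10 lowest between Myh3-rich and Myh3-poor cells, each at 50 CPM or more in the higher group. Examples beyond these were chosen after their values were seen. Some genes that the rule names are not reported here. The last comparison replaced one of cells with and without Myog. Endothelial, epithelial and chondrocyte lists had 2, 0 and 1 gene at 10 CPM, none of them higher in myogenic cells. Alternatives changed the Myod1 threshold, the limits on cells, the minimum level, the depth, the scaling and the cells left out. Against the other brown cells, Col1a1-rich or Mki67-positive cells left out of the myogenic group were counted among the other brown cells. Between the Myh3 groups they were dropped. Coordinates are from GENCODE vM21, and sequences from RefSeq on GRCm38.p6.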

Additional observations from a re-analysis of the deposited data

How the results depend on the processing

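The 38 results recomputed under the alternatives were counts and shares, compared with the main value by size only. Of 337 values, 302 were classed as the same and 35 as moved. The direction of a difference was not compared, so these classes could not show a reversal. With at least 1 Myod1 UMI, which adds the 17 cells at the edge, 1001 genes in all, 0 S phase, 1 G2/M and 3 Hox genes were lower, and the shares of cells with Myog, Des, Cdh15, Mymk and Myh3 were 81.7, 80.5, 74.4, 75.6 and 73.2%. The myeloid list, which is not among the 38 results, then had 1 of 8 genes lower and a median log2 ratio of 0.18, against 7 of 7 and -3.59. The study's limits left 34 cells, with 22 G2/M genes lower. The number of lower G2/M genes was 40 without the Col1a1-rich cells, 44 without the Mki67-positive cells (S phase 31), 28 from the mean of single-cell CPM and 26 after thinning to 10000 UMIs. Thinning gave shares of 78.5% for Cdh15, 1.54% for Myf5 and 67.7% for Col1a1, and cells with at least 3 other markers had Cdh15 in 98.4%. At 50 CPM or more, 500 genes were higher and 824 lower in all, 6 synapse genes were higher, and 2 S phase, 5 G2/M, 6 somite and brown fat and 0 Hox genes were lower, because fewer genes were tested. With no minimum level 2586 genes were higher and 3584 lower, and 16 lineage factors were higher. Between Myh3-rich and Myh3-poor cells, a minimum of 10 CPM gave 810 genes higher and 2288 lower, with 30 of 36 S phase genes lower. Leaving out Mki67-positive cells gave 7 of 9 S phase and 15 of 17 G2/M genes lower. Fewer genes were tested there, and any other cause of the change was not tested. Where the number of genes tested did not change, the cause was not tested. Among lineage factors 1 gene was lower without the Col1a1-rich or Mki67-positive cells, with 3 or more Myod1 UMIs, from mean CPM, with no minimum level and after thinning. The Myh3 groups, their alternatives and the omission of Col1a1-rich and Mki67-positive cells from the myogenic group were added after seeing the data. The planned division by Myog could not be run, since no cell had 0 Myog UMIs. No paired analysis was possible because each depot gave 1 library. With 9 Myh3-poor cells, single deep cells weigh on their sums, and spread between animals was not measured.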
